A study of Drosophila melanogaster with 8 samples.

Results

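Among the 7289 genomic regions shared by all Cph profiles of adult midgut progenitors, 182 (2.5%) lay in 3' UTRs away from any transcription start, and these 182 regions are described here. A member was a contiguous stretch of at least 200 bp inside a peak of each of the 4 Cph-over-control lists. Its nearest base was more than 500 bp from every annotated transcription start, and its midpoint was in a 3' UTR and in no coding exon. The members were therefore chosen by measured values, namely the peaks themselves, and their number, length and fold enrichment are given as a description with no test. The regions fell in the 3' UTRs of 183 genes, of which 176 held 1 region and 7 held 2. Midpoints of 8 regions were in the 3' UTRs of 2 genes at once.

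Cph (Chronophage) is a zinc finger transcription factor, the *Drosophila* homologue of mammalian BCL11A and BCL11B. In NanoDam, a nanobody carries the Dam methylase to an endogenously YFP-tagged protein, and Dam methylates adenine in GATC sequences near that protein, so that the profile can be read only at GATC sites. A 3' UTR is the part of a messenger RNA between the stop codon and the poly(A) tail. It is known for sites of RNA-binding proteins and microRNAs that set the stability and translation of the message.

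NanoDam was profiled in 4 Cph NanoDam libraries and 4 control libraries of *Drosophila* midguts, with 30 midguts per library. In the Cph NanoDam group a Cph-YFP, *UAS-NanoDam* line was crossed with *esg*TS, a temperature-controlled driver active in intestinal stem cells and enteroblasts. The control carried *UAS-NanoDam* and *esg*TS without tagged Cph, so that NanoDam had no tagged protein to bind. All flies were reared at 18 °C, and adults aged 3 to 5 days spent 17 h at 29 °C before dissection. A batch label (batch 2) was given only for replicates 3 and 4 of each group. The files hold peaks and no transcript levels, so the labelled cell type could not be checked by marker genes. MACS2 recorded 55557571 to 125721243 reads per library, and the control library was the deeper one of each pair by a factor of 1.14 to 1.31. Each Cph library had been called against the control of its replicate number, which gave 17453 to 21115 peaks.

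The GATC sites nearest to the midpoints of the leading regions are shown first, because methylation can be recorded only there. Each is printed on the strand of its gene with 13 bases on either side, and the capitals mark the GATC. Coordinates are those of the release 6 assembly.

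The first set flanks regions that contain no GATC of their own, and each of these sites is 8 bases from the end of its region.
Atg5, chrX:7314981-7315010: caaatcccagggcGATCctctgcgatcgat
Ypel, chrX:10206979-10207008: aatgaaaatgcgaGATCgagttttagggta
Neb-cGP, chrX:10461371-10461400: ccctaaccacaccGATCtatgggctgcaag
fs(1)h, chrX:8047685-8047714: gctccattgtgacGATCcctactgtcatgc

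The second set lies inside its region, close to one end.
pHCl-2, chr3R:31302445-31302474: ctgagcacgtacgGATCtgataaatacgtt
CG43245, chr3L:10773119-10773148: gatgttaaggaccGATCggacgatcgaaac
dia, chr2L:20767777-20767806: gcacttgctgcggGATCggctgggggttgc

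The third set belongs to regions that touched no peak of any control library.
CG32369, chr3L:7778258-7778287: aaaattatcactaGATCagcaacataatcc
cpx, chr3R:4297670-4297699: tttgttaatatgaGATCagttcatttacat
hyx, chr3R:9042196-9042225: gtcgcaggcctgcGATCgtgcaaataggcc

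All 10 of these GATC sites are in annotated 3' UTR sequence, as is the midpoint of each region. The *hyx* site is the exception in position, at 63 bases from its region.

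Most of the regions had a GATC site near at least 1 end. An end lay within 20 bases of a GATC in 155 of the 182 regions (85.2%), against 84.9% of all shared regions, and the median distance from the nearer end to the site was 8 bases in both. In 76 regions (41.8%) both ends were this close to a site, against 36.6% of all shared regions. Inside the regions, 111 held at least 1 GATC (61.0%, against 57.1% of all shared regions) and 71 held none. Of those without an internal site, 65 (91.5%) had an end within 20 bases of one, against 92.0% of all shared regions without an internal site.

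The 3' UTR was a class of low density. Distal 3' UTR bases (outside coding exons and more than 500 bp from a start) made up 5.96 Mb, or 4.33% of the genome, and held 30.5 regions per Mb. The same measure was 110 per Mb at promoters (within 500 bp of a start), 95.6 in distal coding exons, 45.2 in distal introns and 20.1 in distal intergenic DNA, with 53.0 over the genome. The classes also differed in GATC, with 2.55 per kb in distal 3' UTRs, 3.09 at promoters and 5.46 in distal coding exons. Distal introns had 2.11 and distal intergenic DNA 2.35. The part of GATC density in the number of regions per Mb was not tested. By chromosome the regions numbered 44 on X, 42 on 2R, 38 on 3R and 29 each on 2L and 3L. Per Mb of distal 3' UTR, 2R had 41.7 regions and the other large arms had 26.8 to 31.5. Chromosome 4 has 96.8 kb of such sequence and held no region.

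The regions were short, with a median of 265.5 bp and a range of 204 to 1005 bp. Of the 182, 98 held no coding base, and in 89 of these every base was 3' UTR, whereas 84 overlapped a coding exon of some transcript. The longest was in *Pepck2* (chr2R:18534430-18535434, 1005 bp), which encodes a phosphoenolpyruvate carboxykinase, the enzyme class of gluconeogenesis. The next were *CG31798* (969 bp), *CG8192* (840 bp) and *sky* (777 bp), a gene whose product, Skywalker, is a GTPase-activating protein of synaptic vesicle traffic. Only 38.0% of the *CG31798* region was 3' UTR and 30.1% was coding, and *CG17544* also overlapped it. Much of the *CG8192* region was coding sequence (72.9% of its bases), while the *sky* region was 3' UTR throughout and was shared with *CG43739*.

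At the length limit, the shortest regions were 204 bp in the overlapping 3' UTRs of *CG13605* and *CG18428*, 207 bp in *snRNP-U1-70K* and 209 bp in *CG33543*. Just below it were stretches of 198 bp in *CG31038*, 198 bp in *CG12290* and 197 bp in *Hers*. At the distance limit, the closest members were 537 bp (*Acbp2*), 541 bp (*CG13605* and *CG18428*) and 542 bp (*CG17855*) from a start. Regions left out by it lay at 456 bp (*ATPsynF*), 402 bp (*Srp9*) and 382 bp (*Plzf*).

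Fold enrichment, the ratio of a peak's pileup to its local background as MACS2 gave it, was modest and varied between lists. Its median over the 182 regions was 1.72 in replicate 1, 2.05 in replicate 2, 2.00 in replicate 3 and 1.84 in replicate 4. Replicate 2 gave the highest of the 4 values in 88 regions, and replicate 1 gave the lowest in 87. These medians were below those over all shared regions in each list (1.86, 2.14, 2.1 and 1.93). The lowest value over the 4 lists had a median of 1.58 and ranged from 1.12 to 3.40. At least a 2-fold enrichment in all 4 lists was found in 29 of the 182 regions (15.9%), against 21.7% of all shared regions, and at least 3-fold in 2.

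**Figure D1:**
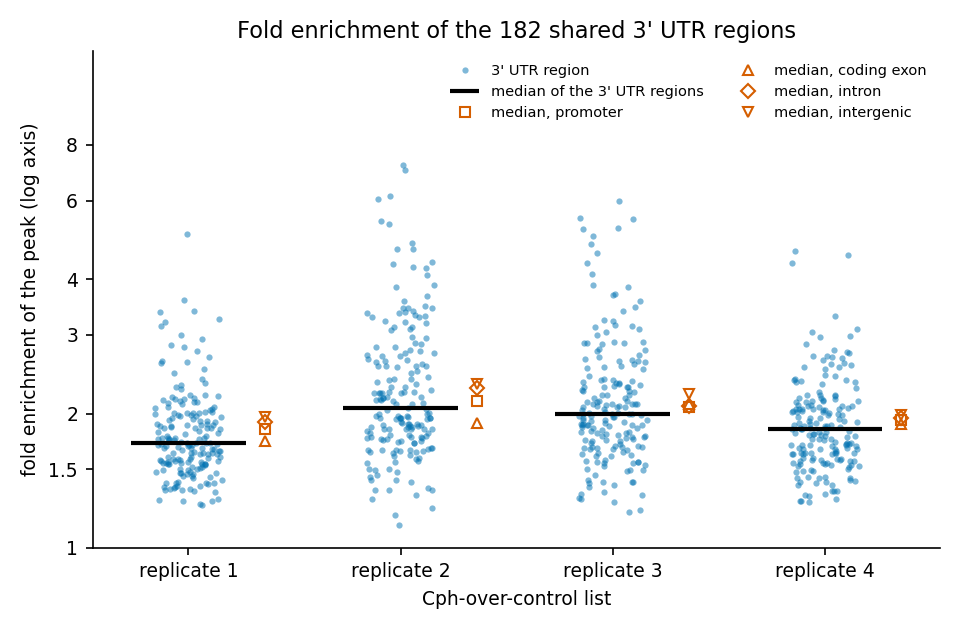
Fold enrichment (log axis) of the peak at each of the 182 shared 3' UTR regions, in each Cph-over-control list. Black lines are medians of these regions (1.72, 2.05, 2.00 and 1.84 in replicates 1 to 4) and open orange symbols are medians of the shared regions in other classes. Most points lie below 3-fold in every list.

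The strongest 12 regions were taken by the lowest percentile of their fold enrichment within any of the 4 lists. This choice used the Cph-over-control contrast, so it favoured regions with a higher signal in Cph than in control libraries. They were 209 to 288 bp long, 5 were on X, and 8 held only 3' UTR bases. Of the 12, 9 had no internal GATC and a GATC within 20 bases of both ends, which held for 38 of the 182 regions (20.9%) and for 18.5% of all shared regions.

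The first of them was in *CG15773*, a gene without an assigned name (chrX:5734341-5734628). Its fold enrichment was 3.39, 4.68, 4.58 and 3.32 in replicates 1 to 4. The scaled pileup, which is MACS2's pileup per 1000000 reads in the libraries called alone, was 14.8, 25.5, 13.9 and 13.8 with Cph NanoDam and 8.93, 9.10, 5.12 and 7.11 in the controls, so that all Cph values were above all control values. The region overlapped the end of *Snx27* and included coding bases (19.1%).

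The second was in *Atg5*, which encodes a protein of the Atg12 conjugation system of autophagosome formation (chrX:7315005-7315216). Fold enrichment was 2.85, 4.23, 5.97 and 4.64 in replicates 1 to 4. The scaled pileup was 13.1, 28.1, 27.1 and 27.7 with Cph NanoDam, and 8.06, 8.80 and 9.97 in control replicates 1, 2 and 4, while control replicate 3 had no peak there. The Cph values were above the control values, with Cph replicate 1 well below the other 3. The midpoint was 20 bases past the stop codon, 40.1% of the bases were coding, and *CG1677* and *lncRNA:CR44357* also overlapped it. Here and below, positions past a stop codon count the 3' UTR bases of all transcripts of a gene, merged and without coding bases. The count starts at the upstream end and can differ from the distance to the stop codon of any 1 transcript.

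The third was in *Ypel*, a gene of the yippee-like family (chrX:10207003-10207244), with fold enrichments of 2.68, 7.01, 5.00 and 4.34. Its scaled pileup was 68.6, 168, 99.3 and 36.8 with Cph NanoDam and 52.9, 12.6, 12.8 and 17.7 in the controls. Here the groups overlapped, since control replicate 1 exceeded Cph replicate 4, and the antisense gene *asRNA:CR44894* also lay across the region.

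Channel and lipid genes followed. *pHCl-2*, which encodes a pH-sensitive chloride channel, held a region of 230 bp (chr3R:31302242-31302471) with fold enrichments of 3.40, 3.44, 3.70 and 4.53. Its scaled pileup was 9.98, 11.7, 7.09 and 11.4 with Cph NanoDam and 4.60, 4.19, 3.27 and 3.57 in the controls. Its scaled pileups did not overlap between the groups. *GlcT*, the ceramide glucosyltransferase, had fold enrichments of 2.59, 3.35, 3.56 and 3.04 over 246 bp, all of it 3' UTR.

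Cytoskeletal and chromatin regulators were in the same group. *dia*, which encodes a formin that nucleates actin filaments, had values of 2.62, 2.97, 4.35 and 3.09 at a position near the end of its 3' UTR, 2540 bases past the stop codon. *Rho1*, the small GTPase that activates formins, had 2.20, 4.26, 3.83 and 2.73. Its scaled pileups overlapped between groups, with 34.5, 63.1, 68.6 and 39.0 with Cph NanoDam and 60.3, 47.1, 39.3 and 42.8 in the controls. The Cph value was the lower one in replicates 1 and 4 and the higher one in replicates 2 and 3. *fs(1)h*, which encodes a bromodomain protein of the BET family, had 3.01, 2.95, 3.88 and 2.64. In the lists called without a control, the *fs(1)h* region was in peaks of 3 Cph and 2 control libraries.

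The rest of the 12 were *dpr11*, *Neb-cGP*, *CG9826* and *CG43245*. *dpr11* encodes a cell surface protein of the immunoglobulin superfamily, and its values were 3.21, 4.68, 4.79 and 2.60. *Neb-cGP* had 2.51, 3.21, 3.10 and 2.77. In *CG9826* and *CG43245* 1 list stood above the others, with 6.15 in replicate 2 of *CG9826* and 5.05 in replicate 1 of *CG43245*, against 2.67 to 3.68 and 2.69 to 3.47 in the other lists.

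**Figure D2:**
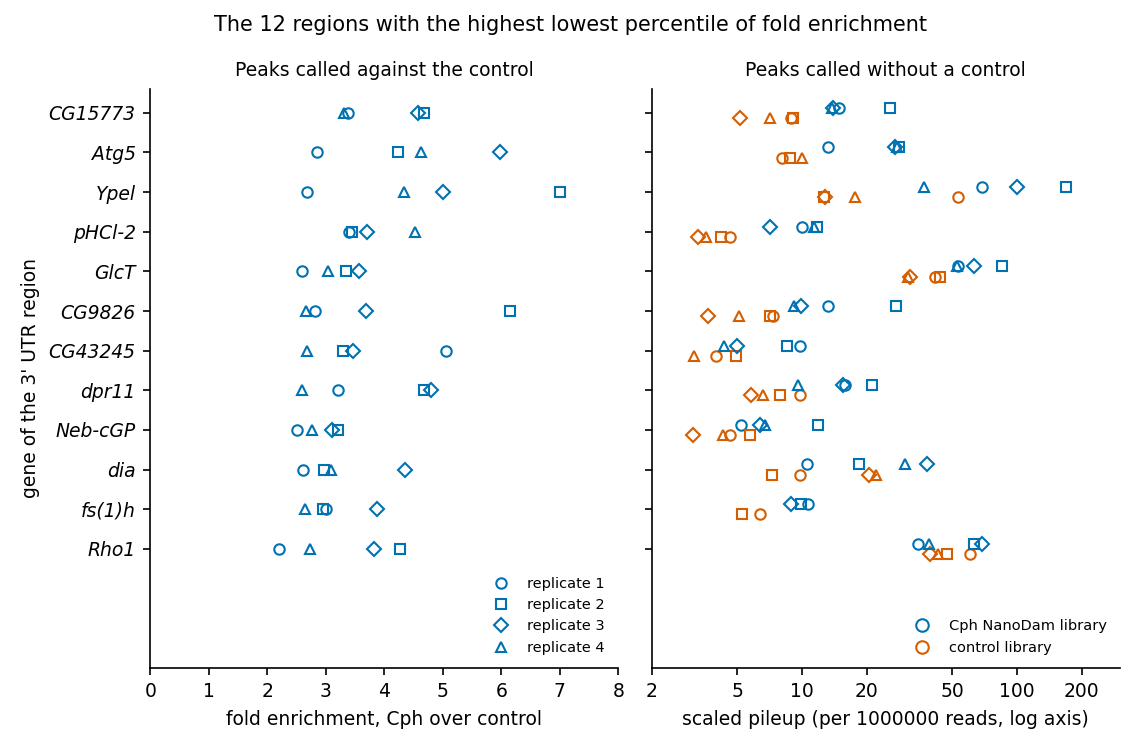
The 12 strongest regions. Left, fold enrichment over the paired control in the 4 Cph-over-control lists, all between 2.20 and 7.01. Right, scaled pileup (per 1000000 reads, log axis) in the libraries called without a control. A missing symbol means that the library had no peak at the region.

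Over all members, 144 regions were in peaks of all 8 libraries called alone. In 29 of these (20.1%) every scaled Cph pileup was above every control value, against 21.2% of the shared regions with 8 peaks. In 72 (50%) the Cph value was higher in all 4 pairs, against 54.9%. These shares use the contrast that chose the regions and are a description.

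Background methylation was present at most of the regions. A peak of every control library, called without a control, touched 147 of the 182 regions (80.8%), against 84.1% of all shared regions. A further 15 regions touched peaks of 3 control libraries, 11 of 2 and 4 of 1. Of the Cph libraries called without a control, all 4 had a peak at 172 regions (94.5%, against 97.0%). Control replicate 3 had peaks at 152 regions and the other controls at 165 to 171.

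No control library had a peak at 5 regions (2.75%, against 2.85% of all shared regions), and 4 of these were in peaks of all 4 Cph libraries (2.28% of all shared regions were so). The longest, of 395 bp, was in *cpx*, which encodes complexin, a regulator of SNARE-mediated vesicle release. Its fold enrichments were 1.45, 2.16, 1.41 and 1.85 and its scaled Cph pileup was 2.22, 3.85, 2.1 and 2.87, which placed it among the weaker members. *CG45088* had fold enrichments of 1.75, 2.73, 1.79 and 2.23 over 288 bp, with a scaled Cph pileup of 6.79, 13.8, 8.70 and 10.5.

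The others of this set were 209 to 212 bp long. *Eglp2*, an aquaglyceroporin gene, had fold enrichments of 1.67, 2.29, 1.86 and 2.15. *hyx*, which encodes the Paf1 complex subunit Hyrax (parafibromin in mammals), had 1.83, 2.61, 2.25 and 2.17, with a scaled Cph pileup of 11.3, 19.9, 15.4 and 16.4. *CG32369* had 1.99, 2.65, 2.54 and 2.13, and Cph replicate 1 had no peak there when called alone. In all 5, replicate 2 gave the highest fold enrichment.

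Of the 7 genes with a pair of regions, the 6 with the largest summed length were *cpx*, *dpr11*, *bif*, *Scamp*, *corto* and *rdx*. In *cpx* the other region was 632 bp long (chr3R:4300115-4300746), had fold enrichments of 1.94, 2.54, 2.05 and 1.70 and touched peaks of 3 control libraries. *Scamp*, which encodes a secretory carrier membrane protein, had 1.76, 2.46, 2.39 and 2.20 at 194 merged 3' UTR bases from the upstream end. Its other region, at 1006 merged bases, had 2.07, 3.84, 2.78 and 1.81. The midpoint at 194 was in the 3' UTR of 1 of 3 coding transcripts and the midpoint at 1006 in that of all 3. *dpr11* had 1.78, 2.82, 1.89 and 1.83 in a region of 735 bp, weaker in every list than its region among the strongest 12.

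The actin-binding protein gene *bif* held the weakest of these regions, with 1.69, 1.23, 1.31 and 1.34 at 826 merged 3' UTR bases from the upstream end. A stronger one lay further on (2.18, 2.70, 1.53 and 1.58). Their midpoints were in the 3' UTRs of 1 and 3 of 5 coding transcripts. *corto*, which encodes a chromatin protein that interacts with Polycomb and Trithorax group proteins, had 1.71, 3.38, 2.71 and 2.03 and, in its second region, 1.55, 1.76, 1.57 and 1.43. *rdx*, the gene of a Cullin-3 adaptor of Hedgehog signalling also called roadkill, had 2.31, 3.67, 2.00 and 2.13 at the stop codon and 1.76, 2.25, 1.5 and 1.75 near the end of its 3' UTR. In each of the 6 genes both regions were in peaks of all 4 Cph-over-control lists by the rule, and their fold enrichments differed.

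The genes that held a region were set against the 6082 genes with at least 200 distal 3' UTR bases, of which 165 (2.71%) held one. Of the 24 such genes of the Notch pathway, none held a region, nor did any of 21 cell cycle genes. Among 24 genes of enteroendocrine fate, 2 held one (8.33%). *pros*, which encodes the homeodomain protein that marks enteroendocrine cells, had fold enrichments of 1.35, 1.87, 1.29 and 1.41 at 1819 bases past the stop codon of a long 3' UTR. *Ptx1*, which encodes a homeodomain protein of the Pitx family, had 1.57, 1.59, 1.63 and 1.88.

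Both were in peaks of all 4 control libraries. At *pros* the scaled control pileups (7.32, 4.26, 4.73 and 4.18) overlapped the Cph values (5.91, 6.02, 3.51 and 2.94), and the Cph value was the higher one only in replicate 2. At *Ptx1* the scaled pileups were 2.62, 4.29, 4.26 and 4.23 with Cph NanoDam and 2.49, 3.17, 1.94 and 2.22 in the controls. There the groups overlapped, but the Cph value was the higher one in every pair, as in 50% of the members with peaks in all 8 libraries.

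Of 25 progenitor transcription factor genes, 1 held a region (4.00%). It was *GATAe*, which encodes a GATA factor needed for midgut identity and stem cell maintenance, with fold enrichments of 2.34, 2.88, 1.89 and 2.04 in a region of 209 bp (chr3R:16018798-16019006). Of 24 autophagy and cell death genes, only *Atg5* held one (4.17%). Of 36 genes of RNA-binding regulators, whose own 3' UTRs were long (median 4458 distal bases), only *Hrb87F* did (2.78%). *Hrb87F* encodes an hnRNP protein of the A/B class, and its values were 1.36, 1.75, 2.25 and 2.36, with peaks in 2 control libraries. Each list thus held 0 to 2 genes with a region, and these counts were not tested.

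Genes with a region had longer 3' UTRs, with a median of 1093 bases over all 183 against 604 over the 6082 eligible genes. Of the 183, 165 were eligible, so the 2 medians are over unlike sets. The share of genes with a region was 1.02% at 200 to 500 distal bases, 2.57% at 500 to 1000, 4.45% at 1000 to 2000, 7.69% at 2000 to 4000 and 7.64% from 4000 on. Per 100 kb of 3' UTR, the same groups held 3.16, 3.63, 3.22, 2.94 and 1.56 regions. The share of genes rose with length up to 4000 bases at a nearly even density, and the longest 3' UTRs held fewer regions per base.

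**Figure D3:**
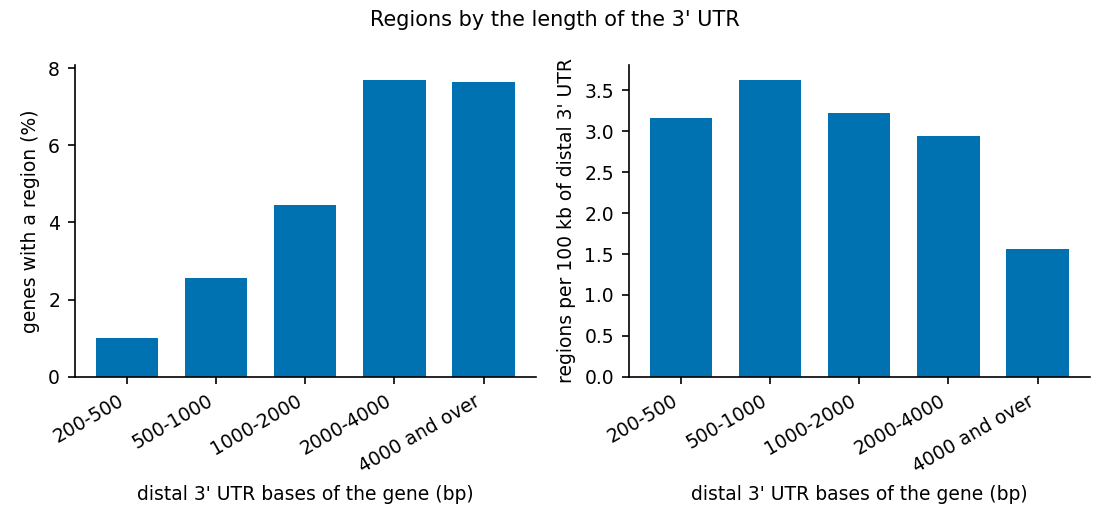
Left, share of genes with a region by the number of distal 3' UTR bases of the gene, from 1.02% to 7.69%. Right, regions per 100 kb in the same groups, near 3 except in the longest group (1.56).

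Along the merged 3' UTR bases of each gene, the midpoints were closer to the upstream end than the bases of the class. These merged bases were divided into 4 equal segments from the upstream end. In segments 1 to 4 there were 77, 52, 32 and 21 midpoints (42.3%, 28.6%, 17.6% and 11.5%), whereas the distal bases divided into 25.8%, 25.5%, 25.2% and 23.5%. The median midpoint was 281.5 merged bases from the upstream end. This order depended on the regions that reached into coding sequence. Among the 98 regions without any coding base, the first segment held 19 (19.4%), the second 35 (35.7%), the third 24 (24.5%) and the last 20 (20.4%). Regions that straddle the stop codon are removed from this count by its construction.

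**Figure D4:**
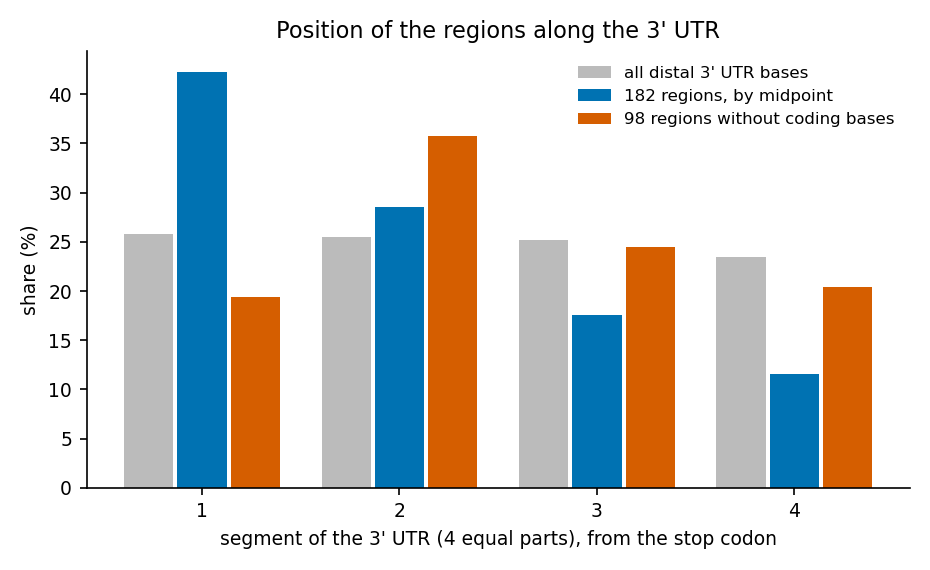
Share of the regions in each of 4 equal segments of the merged 3' UTR bases of a gene, beside the share of all distal 3' UTR bases. Segments are counted from the upstream end, labelled as the stop codon. The first segment holds 42.3% of the 182 regions and 19.4% of the 98 that include no coding base.

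The annotation around the regions was often shared. In 98 regions the midpoint was in the 3' UTR of every coding transcript of the gene and in 84 of only some transcripts. A gene other than the host overlapped 24 regions. For 102 regions (56.0%) the protein-coding gene taken as the next one downstream lay on the opposite strand, and this held for 62.4% of the eligible genes. That gene could overlap or enclose the host, so the count is of strands and not of genes that end towards each other.

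The base composition differed from the class. The median GC content was 43.4% within the regions, against 35.3% over distal 3' UTR bases and 47.8% over all shared regions. The regions held 3.42 GATC per kb, against 2.55 over distal 3' UTRs, and the median distance from a midpoint to the nearest GATC was 95.5 bases, against 152 bases in 24729 windows of 200 bp tiled over distal 3' UTRs. The class of distal 3' UTR bases leaves out coding bases, whereas 84 of the 182 regions overlapped a coding exon. Distal coding exons had a GC content of 53.3% and 5.46 GATC per kb. The part of coding bases in these differences was not tested. Peaks can be recorded only near GATC, and the part of GATC density in the choice of regions was not tested.

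In windows of 200 bp around the midpoints, 4 motifs were searched, none of which contains another. GATC was found in 97 of 182 windows (53.3%, against 35.8% of the tiled windows). TGACCA, a motif of human BCL11A, was found on either strand in 14 windows (7.69%, against 4.88%), and in 18.1% of windows at shared coding exon regions, 10.8% at introns and 8.82% at intergenic regions. AATAAA, the polyadenylation signal, was found on the transcript strand in 32 windows (17.6%, against 28.3%), and TGTANAT, the Pumilio site in RNA, in 26 (14.3%, against 20.1%). The last 2 motifs are rich in A and T, and the windows at the regions had a GC content of 43.0%, against 34.5% in the tiled windows. This difference in composition also bears on TGACCA and GATC, and part of the regions held coding bases. The part of composition or coding bases in any of the motif shares, that of TGACCA included, was not tested.

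Regions that 3 lists shared were looked for in the list left out, which had not chosen them. Of 278 3' UTR regions shared without replicate 1, 62.6% had at least 50% of their bases in peaks of replicate 1. The share was 83.1% for replicate 2, 96.3% for replicate 3 and 70.7% for replicate 4, with a mean of 78.2% ± 14.8 (SD, n = 4 lists). The mean was 82.3% at promoters, 77.8% in coding exons, 82.9% in introns and 79.5% in intergenic DNA. The spread between lists was larger than these differences between classes, and the 4 shares reuse the same lists, so no test was made.

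Whether tagged Cph moved peaks into 3' UTRs at all was tested on the libraries called without a control, with the class of bases set by the annotation alone. Of the bases in peaks, 3.24%, 3.52%, 2.97% and 2.95% were in distal 3' UTRs in Cph NanoDam replicates 1 to 4 and 3.34%, 3.38%, 2.82% and 3.07% in the controls. The means were 3.17% ± 0.270 and 3.15% ± 0.264 (SD, n = 4 each), and the difference of 0.0157 percentage points was within the spread between replicates (exact two-sided permutation test, p = 0.886, adjusted p = 0.886 over 2 measures). The Cph library was the higher one in 2 of 4 pairs.

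The share of distal 3' UTR bases that lay in peaks was 9.45%, 8.01%, 7.18% and 7.36% with Cph NanoDam and 9.99%, 9.89%, 7.37% and 8.47% in the controls. The means were 8.0% ± 1.03 and 8.93% ± 1.25 (SD, n = 4 each), so that the Cph libraries were lower by 0.935 percentage points on average (difference -0.935) and lower in 4 of 4 pairs. In a test that leaves the pairs out, the difference did not pass the threshold (exact two-sided permutation test, p = 0.257, adjusted p = 0.514). The smallest p that 70 arrangements can give is 0.0286. That test counts the gap between replicates 1 and 2 and replicates 3 and 4 as spread. Exact sign flips over the 4 pairs gave p = 0.125, the smallest p that sign flips of 4 pairs can give. The control library was also the deeper one in every pair, and the part of depth in this difference was not tested. In replicates 1 and 2 alone the difference was -1.21 points and in replicates 3 and 4, of batch 2, it was -0.657 points.

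**Figure D5:**
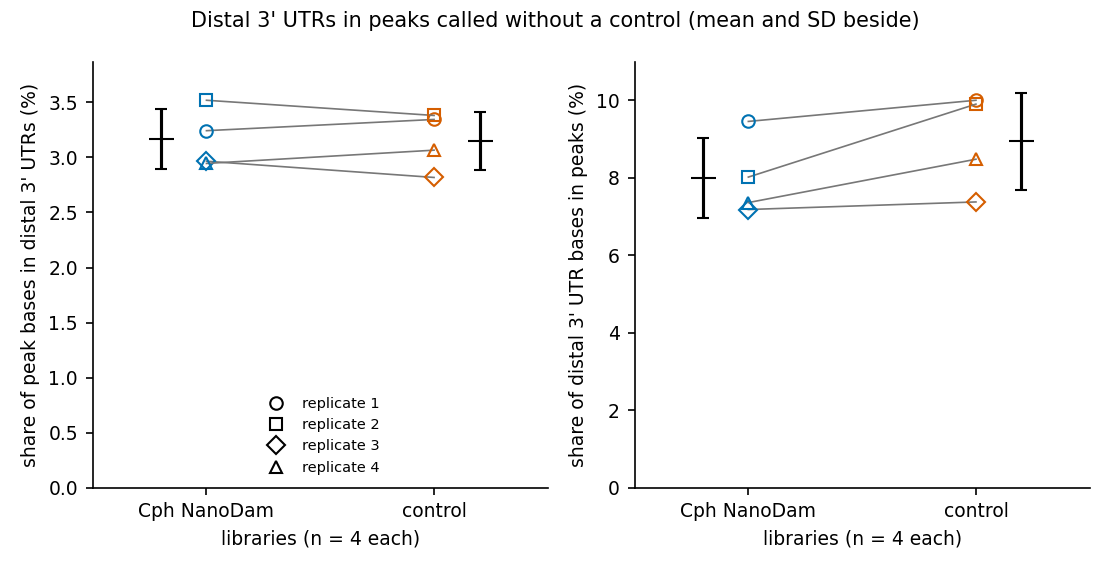
Left, share of peak bases that lie in distal 3' UTRs. Right, share of distal 3' UTR bases that lie in peaks, for 4 Cph NanoDam and 4 control libraries called without a control. Grey lines join libraries of the same replicate number, and black bars give the mean and SD (3.17% and 3.15% on the left, 8.0% and 8.93% on the right).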

How the data were processed

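The authors trimmed single-end reads of 86 bp (Trim Galore 0.6.10), aligned them with Bowtie2 2.5.4 to BDGP6 and called broad peaks with MACS2. The file headers give MACS2 2.1.4 and the labels list 2.2.9.1. The headers give a q cutoff of 0.05, a broad cutoff of 0.1, a genome size of 140000000 and all duplicates kept. Replicates were not pooled. The deposited lists hold for each peak the fold enrichment (a ratio of pileup to local background) and −log10 of the q-value, and the longer deposited lists hold the pileup, a coverage signal unscaled by sequencing depth. Here the pileup was given per 1000000 of the reads that MACS2 recorded. Each region took the values of the peak that overlaps it most, which can be longer than the region. The lists give no depth for single sites, so counting intervals are left out.

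Regions were computed in Python 3.11.15 with Ensembl release 115 (18277 genes, transposable elements left out). Of 13967 protein-coding genes matched by symbol, 13965 have the same coordinates in RefSeq, whose genome sequence of the same assembly was used. The distance to a transcription start was taken from the nearest base of a region. The members and gene lists were chosen with earlier results of these data known. Named regions are the 12 with the highest lowest percentile of fold enrichment, those of the 6 genes with most regions, the 4 longest, those without a control peak, those of genes on 6 lists, and those at the limits of the rule. The lists hold *Delta*, *TP53INP* and *gw* beside their other names *Dl*, *DOR* and *GW182*. These genes were counted under the first names. *nct*, *nos* and *wee* were not matched. Only 2 measures were tested, by exact permutation over libraries with Benjamini-Hochberg adjustment. Libraries are the replicates, labelled as biological.

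Libraries of 1 replicate number were treated as a pair, since the deposited Cph-over-control lists set them against each other. Over 54383 bins of 1000 bp, deviations within a pair had correlations of 0.173 to 0.395, each over the limit of 0.1, and those across pairs had -0.302 to 0.248. Between replicates 3 and 4 of batch 2, the values across pairs (0.220 and 0.248) were not below those within pairs (0.212 and 0.225), so there batch and pair were not told apart. Alternatives covered the thresholds, the limits of the rule, each replicate left out and the replicate block. All steps were first run on simulated lists with planted regions. Sites are printed for part of the named regions, none are from 2R, and 1 further site is not reported here. Unused columns, duplicate copies of lists and the GATC-bin analysis were not used here.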

Additional observations from a re-analysis of the deposited data

Results flagged for a closer look

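In the 735 bp region of *dpr11*, 1 list stood far from the others: fold enrichment was 2.82 in replicate 2 and 1.78 to 1.89 in replicates 1, 3 and 4. The gap to the nearest value was 0.890 of the whole range, above Dixon's critical value for 4 values. It was the only such case among 40 groups of 4 values examined (35 named regions and 5 library measures). Chance gives about 1 in 20, so 1 case among 40 groups is not more than chance would give.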

How the results depend on the processing

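The number of regions was set by the limits of the rule. It was 182, and it became 21 at a minimum length of 500 bp, 29 at a fold enrichment of at least 2, 386 when 3 of the 4 lists sufficed, 43 at more than 3000 bp from a start and 89 when every base had to be 3' UTR. With 1 replicate left out it ranged from 190 to 278, the highest without replicate 1. The genes numbered 183, and 22, 29 and 373 under the first 3 of these settings, and 191 to 272 with 1 replicate left out. Of the 35 named regions, 14 remained at a fold enrichment of at least 2.

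The 147 regions with a peak in every control library became 87 when all bases had to be covered, and 148 to 158 with 1 control left out. The share of 3' UTR regions found in the list left out was 78.2%, and 56.0% when all bases had to be covered.

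The difference in the share of peak bases (0.0157 points) had no stable sign. It was -0.00696 at a fold enrichment of at least 2, -0.0440 without the bases of the shared regions, -0.00316 with no limit on the distance, and -0.0281 to 0.0612 with 1 replicate left out. The difference in the share of 3' UTR bases kept its sign in each of these settings, with -1.18 to -0.620 when 1 replicate was left out. With the replicate block (exact sign flips over 4 pairs, where the smallest p is 0.125), p was 0.750 for the first difference (0.0157) and 0.125 for the second (-0.935). This test could not pass the threshold of 0.05. Peak lists give no reads per site, so depth limits what weak regions can show.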

Other observations

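Further members, chosen after their values were seen, fall into known pathways. Growth factor signalling was represented by *csw*, the SHP2 phosphatase (fold enrichments of 1.93, 4.09, 2.20 and 2.37 in replicates 1 to 4), *Raf*, the MAP kinase kinase kinase (1.98, 1.73, 2.59 and 1.84), *bnl*, an FGF ligand (1.45, 1.65, 1.64 and 1.84) and *tkv*, a BMP receptor (1.5, 1.67, 2.35 and 1.44). All 4 of these regions were in peaks of every control library, and 40.5% of the *Raf* region was coding sequence.

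Of genes of deadenylation, regions were held by *Not1*, the scaffold of the CCR4-NOT complex (2.39, 2.76, 2.90 and 2.16), and *PAN3*, a subunit of the Pan2-Pan3 deadenylase (1.58, 1.56, 1.78 and 1.40). *Pop2* and *twin*, subunits of the CCR4-NOT complex on the list of RNA-binding regulators, were eligible and held none. The circadian clock genes *Clk* (2.12, 2.24, 2.1 and 1.67) and *tim* (1.40, 1.61, 1.97 and 2.36) each held a region. Coding bases made up 30.7% of the *Clk* region and 62.4% of the *tim* region, and both touched peaks of every control library. The *tim* midpoint was in the 3' UTR of 2 of 10 coding transcripts. *par-1*, which encodes a polarity kinase, had 2.01, 2.82, 3.13 and 1.71 in a region with a peak in 1 control library. No test was made of these groups.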
